A study of Homo sapiens with 7 samples.

Results

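Long noncoding RNAs and antisense RNAs were examined in MOLM13 cells, an established line from human acute myeloid leukemia, after transduction with guide RNAs against ZFP36L2. The members were selected by a rule on names, chosen with earlier results of these data known. It took symbols that begin with LINC or SNHG and a number, end in -AS and a digit, or name a microRNA host gene (MIR...HG). NEAT1, MALAT1 and GAS5 were added by the same rule. Of the 11408 genes with values, 192 met this rule. They comprised 53 LINC genes, 118 antisense genes, 14 hosts of small nucleolar RNAs (snoRNAs), counting 13 SNHG genes and GAS5, 5 microRNA hosts, and the nuclear RNAs NEAT1 and MALAT1. By GENCODE 29 the name is not always apt: 11 of the 192 are typed there as protein coding, among them LINC00116 (now MTLN), LINC00998 (SMIM30) and MMP24-AS1 (MMP24OS), and 38 carry another symbol.

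Poly(A)-selected RNA was sequenced in 7 libraries, all of MOLM13 cells collected 6 days after transduction. Of these, 2 were labelled with ZFP36L2 guide 3 and 2 with guide 5, in the numbering of the deposited tables, and 3 with the non-targeting control guide sgRosa. The deposited columns write the target as ZFP2, which is taken here as the ZFP36L2 of the sample labels. The transduced cultures were sequenced in bulk, so fewer cells of a kind and less RNA per cell cannot be told apart. No label says that replicates came from separate cultures, and p-values measure the spread between these libraries, which may be technical.

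Long noncoding RNAs are transcribed and usually spliced like messenger RNAs but are not known to be translated into a working protein. Some act as RNA itself, as NEAT1 does when it scaffolds the nuclear bodies called paraspeckles, while others serve mainly to deliver a smaller RNA from an intron or exon. Antisense genes lie on the strand opposite a protein-coding gene or start beside it. ZFP36L2 is an RNA-binding protein of the tristetraprolin family that binds the AU-rich motif UAUUUAU and speeds the decay of the RNAs that hold it.

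The libraries held 33735298 and 38807816 reads with guide 3, 36556997 and 28088053 with guide 5, and 16907955, 25164359 and 22631858 with the control guide, over the listed genes. Levels are given as CPM, the reads scaled by the authors' adjusted library size, in which a single read stood for 0.0261 to 0.0540 CPM. ZFP36L2 RNA stood at 1132 and 1353 CPM with guide 3 and 734 and 690 CPM with guide 5, against 337, 334 and 311 CPM in the controls, a log2 change of 1.52 ± 0.16 (SE, adjusted p = 1.3e-05). The targeted RNA was thus higher in the libraries labelled with its guides, and gene-level reads do not show whether the gene was edited. All 10 markers of myeloid leukemia cells were listed, with summed levels of 11200 to 20400 CPM in guide libraries and 5450 to 8190 CPM in controls. Of the B cell, erythroid, megakaryocyte and fibroblast markers 0 were listed. CD3D was the 1 T cell marker listed, at 5.70 to 7.98 CPM in guide libraries and 13.6 to 18.5 CPM in controls, and KRT18 the 1 epithelial marker; their part in the results below was not tested. Control replicate 2 stood apart from the other controls, and the results that rest on it are also given without it.

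The microRNA hosts are shown first through the mature microRNAs that lie in them, because the seed, bases 2 to 8, decides which messenger RNAs a microRNA pairs with. Seeds are in capitals, sequences are those of RefSeq on GRCh38.p14, and the libraries did not measure the mature microRNAs. Both hosts that rose hold the first pair, and the next pair lies in hosts that fell:
hsa-miR-22-3p: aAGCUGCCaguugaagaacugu
hsa-miR-210-3p: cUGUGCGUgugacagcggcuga
hsa-miR-155-5p: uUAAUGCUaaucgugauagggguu
hsa-miR-600: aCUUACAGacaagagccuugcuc
The MIR17HG transcript holds 6 hairpins, and its arms fall into seed groups, with miR-17-5p and miR-20a-5p sharing AAAGUGC and miR-19a-3p and miR-19b-3p sharing GUGCAAA:
hsa-miR-17-5p: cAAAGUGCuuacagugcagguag
hsa-miR-20a-5p: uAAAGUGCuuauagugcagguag
hsa-miR-19a-3p: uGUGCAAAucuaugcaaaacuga
hsa-miR-19b-3p: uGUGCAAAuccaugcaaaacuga
hsa-miR-18a-5p: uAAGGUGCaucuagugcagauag
hsa-miR-92a-3p: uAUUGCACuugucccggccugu
MiR-22-3p lies at chr17:1713914-1713935 and miR-210-3p at chr11:568112-568133, both on the minus strand. MiR-155-5p lies at chr21:25573983-25574006 on the plus strand, miR-600 at chr9:123111561-123111583 on the minus strand, and miR-17-5p at chr13:91350618-91350640 on the plus strand. Among the RefSeq entries that were read, a mature microRNA on the same strand was found for 13 members. The reading did not cover all 192 members, so 13 is not a full count. LINC00599, which holds MIR124-1 in GENCODE 29, was left out of the reading, and its absence does not show a lack in RefSeq. NEAT1, which holds MIR612 in GENCODE 29, is also not among the 13, for a reason that was not tested.

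All 5 microRNA hosts passed the test, 2 upward and 3 downward, where 20.9% of all genes rose and 20.6% fell. The order of changes, here and below, is that of log2(CPM + 0.5), which understates the changes of low members and so can place them too low. MIR22HG, whose exon holds miR-22, had 11.2 and 9.59 CPM with guide 3 and 6.59 and 6.54 CPM with guide 5, against 0.270, 1.03 and 0.819 CPM in the controls. Every guide library lay above every control. Its log2 change of CPM + 0.5, both guides minus control, was 2.92 ± 0.26 (SE; limma, adjusted p = 3.4e-06 by Benjamini-Hochberg over all 11408 genes), with 3.23 for guide 3 and 2.61 for guide 5. The added 0.5 makes the changes of such low genes smaller: the authors' deposited table gives 3.84 for guide 3 and 3.18 for guide 5. In the same deposited table MIR210HG, which had no control reads, has 8.88 and 8.67.

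MIR210HG, host of the hypoxia-induced miR-210, had 66 and 79 reads with guide 3 and 76 and 43 reads with guide 5, against 0 reads in each of the 3 controls. These reads correspond to 2.01, 2.06, 2.04 and 1.47 CPM. Set against the floor of 3 reads in a control library, at most 0.162 CPM, the guide mean was at least 11.7-fold higher (adjusted p = 1.6e-05). MIR210HG was the 1 member with 3 or fewer reads in every control. It passed the filter of a mean CPM of at least 0.5 through its guide libraries alone. A gene absent from controls can thus be tested only where the guide libraries are high. Both hosts kept their calls when each of the 7 libraries was left out in turn, and after the libraries were corrected for the GC content and length of the exons (2.67 for MIR22HG and 1.60 for MIR210HG). For MIR210HG, leaving out a control could not change the control mean of 0, so those fits are no support for its call.

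MIR155HG, host of the immune and oncogenic miR-155, fell in the guide libraries. It had 4.33 and 4.76 CPM with guide 3 and 5.38 and 6.54 CPM with guide 5, against 10.4, 13.6 and 8.35 CPM in the controls, without overlap. The log2 change was -0.96 ± 0.22 (adjusted p = 0.0048) and kept its call without each library, but after GC correction it was -0.47 (adjusted p = 0.068). MIR17HG, a growth-promoting microRNA cluster under MYC, had 3.29, 2.38, 1.53 and 2.16 CPM in guide libraries and 4.59, 6.12 and 2.54 CPM in controls. Its groups overlapped, and its change of -0.76 ± 0.28 (adjusted p = 0.048) passed in 1 of the 7 leave-one-out fits, with 0.13 without control replicate 1 or 2 and 0.15 without guide 3 replicate 2 or guide 5 replicate 1. MIR600HG stood at 4.06, 3.50, 3.56 and 3.80 CPM in guide libraries, against 4.97, 8.09 and 5.89 CPM in controls. Its change of -0.66 ± 0.22 (adjusted p = 0.032) was larger after GC correction, at -0.86 (adjusted p = 0.011), but passed in 2 of the 7 fits, reaching 0.12 without guide 3 replicate 2 and 0.050 without control replicate 2.

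Among the LINC genes with a mature microRNA, LINC00925, now named MIR9-3HG for the neuronal miR-9, had 32.3, 34.9, 30.2 and 25.8 CPM in guide libraries and 37.2, 53.8 and 40.2 CPM in controls. Its change of -0.49 missed the threshold (adjusted p = 0.051), though the groups did not overlap, and was -0.88 (adjusted p = 0.0039) after GC correction. Of the 13 proteins that process or load microRNAs, 0 rose and 3 fell (20.9% and 20.6% of all genes), with a median of -0.39 beside -0.05 over all genes, so the count of falls was near the background. The nuclear processing enzyme DROSHA (-0.76), the Dicer partner PRKRA (-0.64) and the export receptor XPO5 (-0.58) were those 3. After GC correction 2 members of the list rose and 2 fell.

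Over all 192 members, 25 rose and 29 fell with both guides together, 13.0% and 15.1%, and 138 did not pass the test. Over all 11408 genes, 20.9% rose and 20.6% fell, 41.4% in all, so both shares were below the background. Members also had fewer reads, with a median of 5.11 CPM per member beside 38.7 CPM over all genes. Their median log2 change of -0.06 was that of a typical gene (-0.05). All 4 guide libraries lay above all 3 controls in 27 members (19.8% of all genes) and below them in 36 (23.7%).

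The counts depended on single libraries. Without control replicate 2, 43 members rose and 25 fell (27.0% and 20.2% of all genes), and without guide 3 replicate 2, 14 rose and 13 fell (14.9% and 10.2% of all genes). There were 14 rises and 16 falls without guide 3 replicate 1 (16.8% and 14.1% of all genes), 15 and 15 without guide 5 replicate 1 (14.2% and 9.74%), and 19 and 14 without guide 5 replicate 2 (17.9% and 14.8%). Without control replicate 1 there were 15 rises and 23 falls (15.3% and 15.4% of all genes), and without control replicate 3 there were 25 and 38 (22.8% and 25.9%). In all, 25 of the 54 called members, 12 upward and 13 downward, kept their call whichever library was left out. Quantile normalization, which moved the median of all genes to -0.11, gave 15 rises and 57 falls in place of 25 and 29 (20.8% and 29.5% of all genes). Library weights gave 47 and 28 (29.3% and 23.4%).

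**Figure D1:**
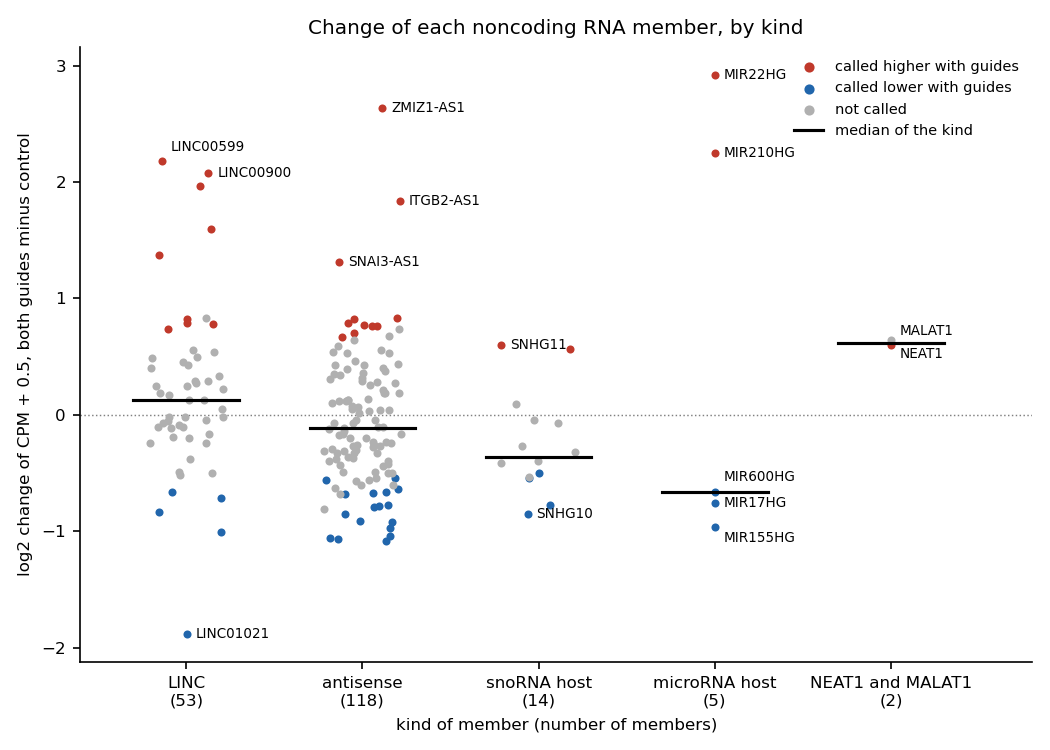
Each point is 1 member, placed by its kind on the horizontal axis and by its log2 change of CPM + 0.5 (both guides minus control) on the vertical axis; red and blue points passed the test upward and downward, and black lines are medians. The LINC median lies above 0 at 0.13 and the other medians of the larger kinds below it, at -0.11 for antisense genes and -0.36 for snoRNA hosts.

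The 53 LINC genes had 9 rises and 5 falls, 17.0% and 9.43%, both below the 20.9% and 20.6% of all genes, with a median of 0.13. The 2 highest on the log2(CPM + 0.5) scale were LINC00599 and LINC00900. LINC00599, now named MIR124-1HG, had 41.8 and 47.9 CPM with guide 3 and 26.5 and 21.1 CPM with guide 5, against 6.26, 9.54 and 5.24 CPM in controls. The change was 2.18 ± 0.22 (adjusted p = 1e-05), larger with guide 3 (2.63) than with guide 5 (1.73), a difference that did not pass (adjusted p = 0.31).

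LINC00900 on chromosome 11 had its highest levels with guide 5, at 23.5 and 26.5 CPM, beside 14.4 and 10.5 CPM with guide 3, against 4.05, 3.23 and 4.05 CPM in controls. Its change was 2.08 ± 0.20 (adjusted p = 7.4e-06), and the guide 5 minus guide 3 difference of 0.99 ± 0.27 had an adjusted p of 0.19. LINC00656 was close to absent in controls, at 4.21, 4.60, 2.49 and 1.37 CPM in guide libraries and 0.216, 0.561 and 0.368 CPM in controls. Its change was 1.97 ± 0.26 (adjusted p = 0.0001). LINC00656 passed the filter of mean CPM only through its guide libraries. All 3 kept their calls without each library and after GC correction (2.10 for LINC00599, 2.19 for LINC00900 and 1.63 for LINC00656).

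LINC00968 (1.60), LINC00482 (1.37, past the filter only through its guide libraries) and LINC00963 (0.82) followed, each called in all 7 leave-one-out fits. LINC00963 was the most abundant of these, at 57.6, 51.9, 44.1 and 38.1 CPM in guide libraries and 19.7, 35.3 and 27.0 CPM in controls. LINC00339 (0.78) and LINC00174 (0.74) completed the non-overlapping rises, but both lost their call without control replicate 1 (adjusted p = 0.14 and 0.067), without either guide 3 library, and without guide 5 replicate 1 (0.20 and 0.13).

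The largest fall of any member on the log2(CPM + 0.5) scale was that of LINC01021, also named PURPL, an RNA known as a target of p53 that restrains p53 levels. It had 9.24 and 7.40 CPM with guide 3 and 11.5 and 13.9 CPM with guide 5, against 35.2, 59.7 and 28.3 CPM in controls. No guide library reached the lowest control. The change was -1.88 ± 0.25 (adjusted p = 9.3e-05), -1.40 (adjusted p = 0.0012) after GC correction, and -1.58 (adjusted p = 5e-05) without control replicate 2, its highest library.

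The other 4 LINC genes that fell were LINC00563 (-1.01), LINC00152 (-0.83), LINC00938 (-0.71) and LINC00884 (-0.66). LINC00152, or CYTOR, an RNA linked to cell growth in carcinomas, had 3.29, 2.72, 3.69 and 2.95 CPM in guide libraries and 9.88, 5.38 and 3.97 CPM in controls. Its call rested on the first control, with an adjusted p of 0.14 without control replicate 1, and it was also lost without guide 3 replicate 2 or either guide 5 library. LINC00938 stood at 15.3, 16.0, 18.0 and 18.0 CPM in guide libraries and 29.3, 31.7 and 22.9 CPM in controls, yet its change after GC correction was -0.16 (adjusted p = 0.35). LINC00884 was called in 2 of the 7 fits, with an adjusted p of 0.17 without guide 5 replicate 2.

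The most abundant LINC genes described here did not pass the test. LINC00926 had 116, 134, 118 and 98.6 CPM in guide libraries and 81.3, 133 and 90.9 CPM in controls, a change of 0.22 ± 0.19 (adjusted p = 0.36). LINC00657, or NORAD, a cytoplasmic RNA that binds Pumilio proteins, had 81.0, 76.8, 79.4 and 83.2 CPM in guide libraries and 110, 106 and 72.7 CPM in controls, a change of -0.24 ± 0.18 (adjusted p = 0.30) that was 0.27 (adjusted p = 0.083) after GC correction. In both genes the groups overlapped.

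**Figure D2:**
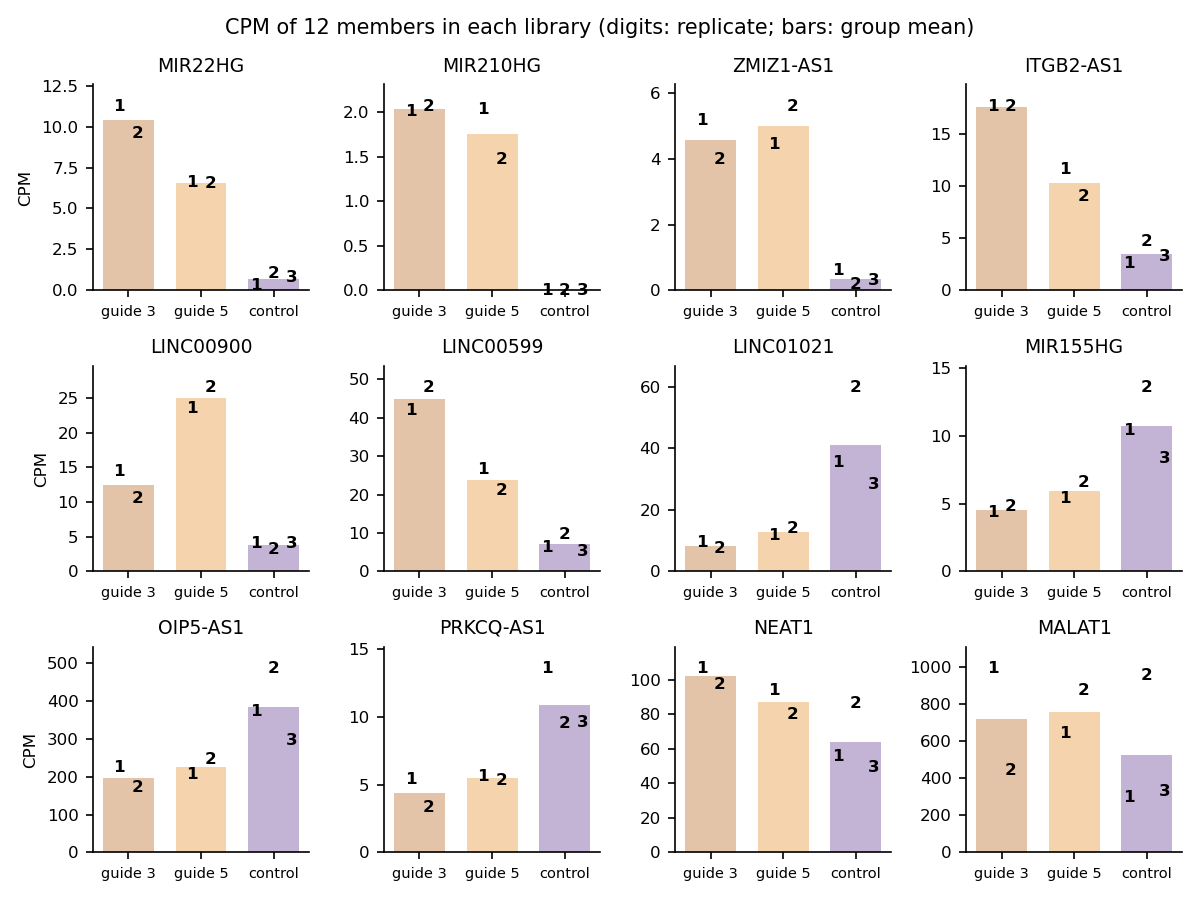
CPM of 12 members in each library, with guide 3, guide 5 and control from left to right; each digit is 1 library and gives its replicate number, and bars are group means on axes that start at 0. MIR210HG lies at 0 in all 3 controls, and control replicate 2 is the highest control for LINC01021, OIP5-AS1, NEAT1 and MALAT1.

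NEAT1 and MALAT1 are neighbors on chromosome 11 that stay in the nucleus, NEAT1 in paraspeckles and MALAT1 in speckles, and MALAT1 and the long NEAT1 form end without the usual poly(A) tail. NEAT1 (chr11:65422774-65445540, GRCh38, plus strand) had 107 and 97.5 CPM with guide 3 and 93.8 and 80.1 CPM with guide 5, against 55.7, 86.1 and 49.3 CPM in controls. Guide 5 replicate 2 lay below control replicate 2, so the groups overlapped. Its change of 0.60 ± 0.20 (adjusted p = 0.032) was 0.84 (adjusted p = 0.00056) without control replicate 2 and 0.82 (adjusted p = 0.0014) after GC correction. It lost its call when any 1 of the other 6 libraries was left out, with adjusted p of up to 0.12, without guide 5 replicate 1.

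MALAT1 had 992 and 444 CPM with guide 3 and 643 and 874 CPM with guide 5, against 297, 955 and 327 CPM in controls. The libraries of each group spread widely and overlapped, and the change of 0.64 ± 0.37 did not pass (adjusted p = 0.18). Without control replicate 2 it was 1.18 (adjusted p = 0.0041), and after GC correction 1.17 (adjusted p = 0.038). Control replicate 2 also held the largest share of reads on pseudogenes of mitochondrial transcripts, 0.160%, beside 0.0463% to 0.0828% in the other 6 libraries, and their part in the MALAT1 level was not tested.

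Among proteins of the bodies that these RNAs occupy, every call in the fit of all 7 libraries was downward. Other settings called some genes of the 7 lists higher, as given at the end. Of 15 paraspeckle proteins, 0 rose and 7 fell (median -0.45; 20.9% and 20.6% of all genes), with the RNA-binding proteins NUDT21 (-0.84), TARDBP (-0.80) and RBM12 (-0.79) lowest. Of 11 speckle proteins, 0 rose and 5 fell (median -0.51), led by the splicing factors SRSF1 (-1.16), SRSF11 (-0.84) and SRSF3 (-0.66). After GC correction 4 paraspeckle and 2 speckle proteins fell and 0 rose, where 18.5% of all genes rose and 15.6% fell. The share of falls among speckle proteins was then near that of all genes. Of 12 genes that target nuclear RNA to the exosome, 0 rose and 6 fell (median -0.60), and 3 fell after the correction.

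The 14 snoRNA hosts had 2 rises, 4 falls and a median of -0.36, and their shares of 14.3% and 28.6% stand on few genes beside 20.9% and 20.6% of all genes. They are those with an SNHG symbol in the deposited data and GAS5. FAM211A-AS1 (now SNHG29, 0.13) and LINC00338 (now SNHG20, -0.24) are counted by their older names among antisense and LINC genes, and did not pass. SnoRNAs guide chemical changes of ribosomal RNA and are cut from the introns of these genes, while the spliced host RNA is often short-lived because nonsense-mediated decay removes it. Some hosts start with a C and a run of pyrimidines, the 5′ terminal oligopyrimidine (TOP) tract known from ribosomal protein genes. The first 30 bases from the annotated start in RefSeq (GRCh38.p14) are shown for 3 hosts that fell (SNHG6, which also fell, is not shown), for both that rose and for SNHG1, with the leading pyrimidines in capitals:
SNHG5: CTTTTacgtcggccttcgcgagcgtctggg
SNHG12: CCTTTCTCCCCgccgcattcccggtgtcga
SNHG10: agcctcatcctactgccttactattggtcg
SNHG7: CTCTgcgtgcgccggaggctgccgtggcgg
SNHG11: gcagccgcgcccccagccgtatttccgcgg
SNHG1: CTCatttttctactgctcgtggtaagtggc
They lie at chr6:85678704-85678733, chr1:28581844-28581873, chr14:95534843-95534872 and chr9:136728155-136728184 on the minus strand, chr20:38446654-38446683 on the plus strand and chr11:62855856-62855885 on the minus strand. A start with C followed by 4 pyrimidines was present in 2 of the 12 hosts read, SNHG5 and SNHG12, in 4.07% of 35116 RefSeq starts and in 56.5% of 85 starts of ribosomal protein genes. SNHG6 was left out of the reading and SNHG15 had no entry, so the count does not cover every host that fell. The annotated start need not be the one used in these cells. For GAS5, which is not shown, the start read (chr1:173869016-173869045, minus strand) lies outside its GENCODE 29 span, which ends at 173868882.

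SNHG5 and SNHG12 both fell. SNHG5 had 48.2 and 43.9 CPM with guide 3 and 34.6 and 34.6 CPM with guide 5, against 68.7, 53.8 and 54.0 CPM in controls, a change of -0.54 ± 0.17 (adjusted p = 0.023). SNHG12 had 15.2 and 16.5 CPM with guide 3 and 11.2 and 10.5 CPM with guide 5, against 18.8, 19.7 and 18.1 CPM in controls, a change of -0.50 ± 0.18 (adjusted p = 0.038). In both the guide 5 libraries were the lowest and no guide library overlapped the controls. Guide 5 alone passed for each (-0.75 and -0.77), and guide 3 alone did not (-0.34 and -0.24). SNHG12 kept its call after GC correction (-0.58) and SNHG5 did not (-0.25, adjusted p = 0.13). Each passed in 2 of the 7 leave-one-out fits, those without control replicate 2 and control replicate 3, with adjusted p of up to 0.11 for SNHG5 and 0.14 for SNHG12 in the others.

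SNHG10 fell most, with 3.11, 3.79, 2.33 and 1.82 CPM in guide libraries and 5.61, 5.14 and 4.95 CPM in controls, a change of -0.85 ± 0.21 (adjusted p = 0.0076) that kept its call in all 7 fits and after GC correction (-0.73). SNHG6, the host with the most CPM per kilobase of exon, had 212, 234, 208 and 196 CPM in guide libraries and 325, 571 and 257 CPM in controls. Its change was -0.77 ± 0.23 (adjusted p = 0.020), -0.45 without control replicate 2 (adjusted p = 0.016), and -0.41 after GC correction (adjusted p = 0.22).

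GAS5, named for its build-up in growth-arrested cells, had 232, 177, 227 and 200 CPM in guide libraries and 266, 328 and 242 CPM in controls. The groups did not overlap, but the change of -0.41 ± 0.18 missed the threshold (adjusted p = 0.078) and was -0.02 after GC correction. SNHG3 (-0.53, adjusted p = 0.082), SNHG1 (-0.40, 0.17), SNHG15 (-0.32, 0.17) and SNHG16 (-0.27, 0.22) did not pass, nor did SNHG17 (-0.07), SNHG14 (-0.04) and SNHG8 (0.09), and all 7 overlapped between groups. After GC correction SNHG15 (-0.49) and SNHG17 (-0.41) passed downward, and SNHG14 (0.23) and SNHG16 (0.02) changed sign without passing.

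SNHG7 and SNHG11 were the hosts that rose. SNHG7 had 34.1, 46.2, 36.9 and 30.5 CPM in guide libraries and 23.1, 19.7 and 32.1 CPM in controls, a change of 0.57 ± 0.21 (adjusted p = 0.046) with overlapping groups. SNHG11 had 6.98, 6.69, 6.21 and 5.0 CPM in guide libraries and 2.97, 4.16 and 4.83 CPM in controls, a change of 0.60 ± 0.22 (adjusted p = 0.048). After GC correction the changes were -0.03 and 0.08. SNHG7 passed only without control replicate 3 and SNHG11 only without control replicate 2 or 3, with adjusted p of up to 0.19 without guide 3 replicate 2 and 0.18 without guide 5 replicate 1.

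**Figure D3:**
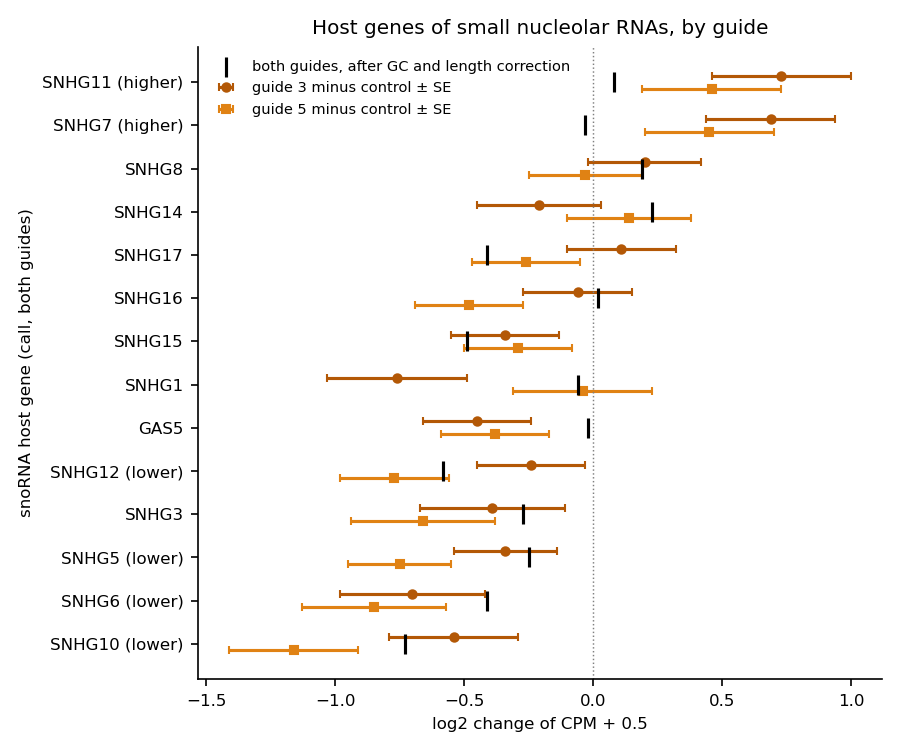
The 14 snoRNA hosts from the highest to the lowest change, with the log2 change of guide 3 (circles) and guide 5 (squares) against control and bars of 1 SE; vertical ticks give both guides after GC and length correction. The ticks of SNHG11, SNHG7 and GAS5 lie at 0.08, -0.03 and -0.02, while that of SNHG10 stays at -0.73.

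Of 14 tested proteins that build snoRNA particles, 0 rose and 9 fell (median -0.63; 20.9% and 20.6% of all genes), and 9 fell after GC correction (15.6% of all genes). GAR1, a core protein of the H/ACA class, had 27.4, 24.9, 25.9 and 22.5 CPM in guide libraries and 63.8, 84.3 and 49.1 CPM in controls, a change of -1.34 ± 0.20 (adjusted p = 0.00031). The assembly factors SHQ1 (-1.18) and ZNHIT6 (-1.13) came next. Of 31 protein-coding genes that host snoRNAs, 0 rose and 6 fell (median -0.30), a share of falls near that of all genes, among them the chaperone HSPA8 (-1.19), the nucleolar protein NCL (-0.70) and the ribosomal protein RPL27A (-0.67). Of 10 nonsense-mediated decay factors, likewise on few genes, 0 rose and 3 fell, UPF2 (-0.91), UPF3B (-0.90) and SMG1 (-0.57), and 0 passed in either direction after GC correction. UPF2 had 110, 96.1, 99.6 and 121 CPM in guide libraries and 160, 334 and 149 CPM in controls, of which replicate 2 was highest. Over the 7 lists together 38 genes fell (20.6% of all genes), a count that dropped when single guide libraries were left out.

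Of the 118 antisense genes, 11 rose and 17 fell (median -0.11), 9.32% and 14.4%, both below the 20.9% and 20.6% of all genes. ZMIZ1-AS1 rose most among them on this scale, with 5.15 and 3.97 CPM with guide 3 and 4.42 and 5.58 CPM with guide 5, against 0.594, 0.187 and 0.287 CPM in controls. The change was 2.64 ± 0.25 (adjusted p = 5.4e-06) and 2.58 after GC correction. ZMIZ1-AS1 passed the filter of mean CPM only through its guide libraries. Its neighbor ZMIZ1, a coregulator of transcription, had 138, 159, 198 and 163 CPM in guide libraries and 74.0, 142 and 97.6 CPM in controls, a smaller change of 0.69 ± 0.21 (adjusted p = 0.021). The exons of the pair do not overlap.

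ITGB2-AS1 lies on the strand opposite ITGB2, which encodes the leukocyte integrin chain CD18. It had 17.6 and 17.6 CPM with guide 3 and 11.6 and 8.97 CPM with guide 5, against 2.54, 4.68 and 3.23 CPM in controls, a change of 1.84 ± 0.23 (adjusted p = 5.9e-05). ITGB2 had 2155, 2203, 1559 and 1312 CPM in guide libraries and 556, 508 and 773 CPM in controls, a change of 1.55 ± 0.19 (adjusted p = 4.7e-05). The guide 3 libraries were the highest for both genes. Exons on the opposite strand, in part those of ITGB2, cover 13.5% of the exon bases of ITGB2-AS1. The kit kept strand, but whether reads were counted by strand is not given in the sources used here, so reads of an antisense gene and its overlapping partner cannot be told apart.

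The other antisense genes with non-overlapping rises included SNAI3-AS1 (1.31), A1BG-AS1 (0.83), MMP24-AS1 (0.82), VPS9D1-AS1 (0.79), ASMTL-AS1 (0.77) and MAFG-AS1 (0.76). SNAI3-AS1 had 3.02, 3.82, 2.38 and 2.26 CPM in guide libraries and 0.432, 1.26 and 0.942 CPM in controls. MMP24-AS1, typed in GENCODE 29 as the protein-coding gene MMP24OS, had 57.9, 54.9, 42.4 and 42.9 CPM in guide libraries and 29, 21.8 and 33.0 CPM in controls. Both kept their calls in all 7 leave-one-out fits and after GC correction, while A1BG-AS1 (0.26), VPS9D1-AS1 (0.05), ASMTL-AS1 (0.07) and MAFG-AS1 (0.00) did not pass after the correction. The adjusted p of A1BG-AS1 reached 0.050 without guide 3 replicate 1 and that of VPS9D1-AS1 0.059 without guide 3 replicate 2. ASMTL-AS1 and MAFG-AS1 were called in 2 and 3 of the 7 fits, with adjusted p of up to 0.12.

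PRKCQ-AS1 fell most among the antisense genes, beside PRKCQ, a protein kinase C best known from T cells. It had 5.37, 3.35, 5.62 and 5.31 CPM in guide libraries and 13.6, 9.54 and 9.58 CPM in controls, a change of -1.08 ± 0.23 (adjusted p = 0.003). PRKCQ had 1.49, 2.20, 4.10 and 4.83 CPM in guide libraries and 7.02, 11.5 and 7.74 CPM in controls, a change of -1.42 ± 0.24 (adjusted p = 0.00065). The T cell marker CD3D was lower in guide libraries too, as given above, and its part in these 2 changes was not tested.

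MEF2C-AS1 (-1.07), MCM3AP-AS1 (-1.06) and KTN1-AS1 (-1.04) fell by like amounts, without overlap, in all 7 leave-one-out fits and after GC correction. The myeloid and neuronal transcription factor MEF2C fell with its antisense gene (-0.71, adjusted p = 0.025), as did KTN1, a membrane anchor of kinesin (-1.01, adjusted p = 0.0031). MCM3AP-AS1 had 5.25, 4.89, 4.12 and 5.31 CPM in guide libraries and 8.37, 18.2 and 7.86 CPM in controls. MCM3AP, a factor of messenger RNA export, did not pass beside it, at 141, 145, 139 and 132 CPM in guide libraries and 132, 140 and 138 CPM in controls (0.03 ± 0.15, adjusted p = 0.89).

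OIP5-AS1, whose counterpart in zebrafish is the conserved RNA cyrano, was the antisense gene with the most reads among those that fell. It had 224 and 172 CPM with guide 3 and 205 and 244 CPM with guide 5, against 372, 486 and 296 CPM in controls, a change of -0.85 ± 0.20 (adjusted p = 0.0052) that was -0.41 (adjusted p = 0.019) after GC correction. THAP9-AS1 (-0.97), TMCC1-AS1 (-0.92) and SETD5-AS1 (-0.79) also fell without overlap. After GC correction TMCC1-AS1 passed (-0.62) while THAP9-AS1 (-0.52, adjusted p = 0.13) and SETD5-AS1 (-0.31, adjusted p = 0.28) did not. SETD5-AS1 also lost its call without guide 5 replicate 2 (adjusted p = 0.074) and without either guide 3 library. The most abundant antisense gene, FAM211A-AS1, now named SNHG29, did not pass (0.13, adjusted p = 0.60), nor did FGD5-AS1 (-0.14, 0.51) and CEBPZ-AS1 (-0.36, 0.31). These 3 changed sign without passing under other settings, FAM211A-AS1 without control replicate 2 (-0.09), and FGD5-AS1 (0.06) and CEBPZ-AS1 (0.20) after GC correction.

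Sense partners of 101 antisense genes were among the genes with values, of which 19 rose and 23 fell (median -0.13; 20.9% and 20.6% of all genes). Without control replicate 2, 29 partners rose (27.0% of all genes), and the count of falls depended on single guide libraries. Of the 9 antisense genes that rose and had a partner listed, 8 had a partner that rose and 0 one that fell. Of the 16 that fell, 4 had a partner that fell, 0 one that rose and 12 one that did not pass. Among the 8 that rose with their partner, INHBA-AS1, ITGB2-AS1 and ZMIZ1-AS1 still passed after GC correction. ASMTL-AS1, BAIAP2-AS1, CEBPA-AS1, MAFG-AS1 and VPS9D1-AS1 did not. BAIAP2-AS1, CEBPA-AS1 and MAFG-AS1 have GENCODE 29 names that end in -DT, and they do not overlap the span of their partner. Across the 101 pairs the log2 changes had Pearson's r of 0.45 and Spearman's rho of 0.43, over pairs that share all 7 libraries, a chromosomal neighborhood and much of their GC content (r = 0.59). Before any correction Pearson's r was 0.38 in the 64 pairs with exons that overlap on opposite strands and 0.59 in the 37 without. After GC correction it was 0.27 over all 101 pairs. In a pair chosen after its values were seen, ENTPD1, which encodes the ectonucleotidase CD39, had a log2 change of 2.80 (adjusted p = 2.8e-06), while ENTPD1-AS1, with overlapping exons, had -0.49 (adjusted p = 0.087).

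**Figure D4:**
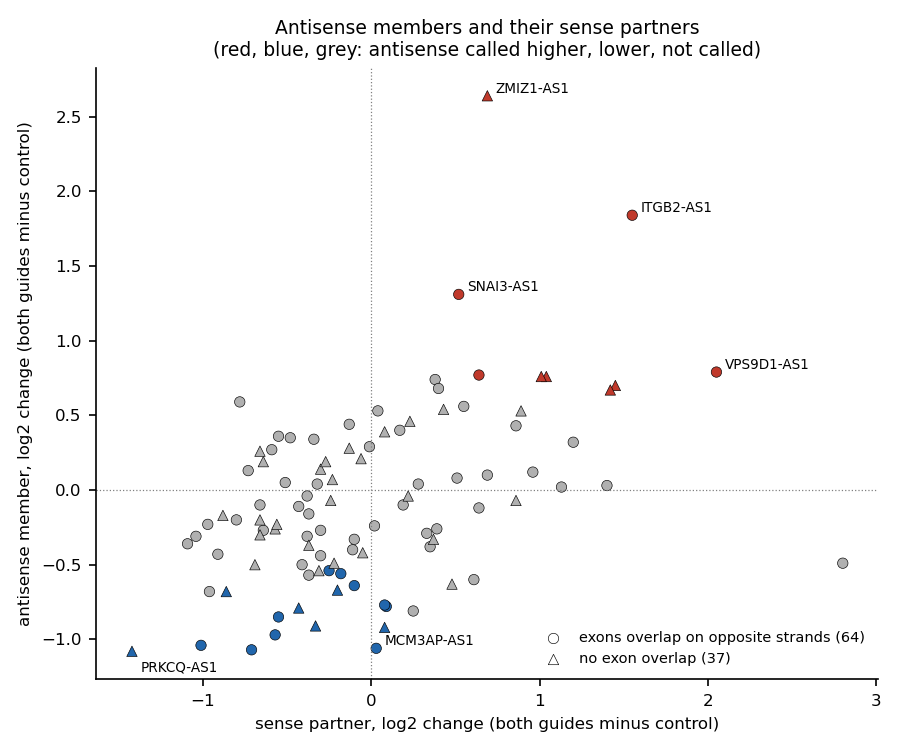
Each point is an antisense member with its sense partner, with the partner's log2 change on the horizontal axis and the antisense change on the vertical axis; circles have exons that overlap on opposite strands and triangles do not. The red points, antisense genes that rose, all lie right of 0, and MCM3AP-AS1 lies at -1.06 while its partner lies at 0.03.

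With guide 3 alone 25 members rose and 18 fell (21.2% and 18.9% of all genes), and with guide 5 alone 10 rose and 16 fell (12.2% and 7.68%). Without control replicate 2 the rises numbered 43 with guide 3 and 23 with guide 5. Leaving out 1 of the 2 libraries of a guide left 13 or 14 rises and 6 or 2 falls with guide 3, and 1 or 2 falls with guide 5. Shares of all genes are not given for these leave-one-out counts by guide, so they show dependence on single libraries and not a result about members. The 2 guides share the controls, and their values stand side by side. MIR22HG (3.23 with guide 3, 2.61 with guide 5), ZMIZ1-AS1 (2.58, 2.70), MIR210HG (2.34, 2.16) and LINC01021 (-2.17, -1.59) passed with each. In all, 17 members, 10 upward and 7 downward, passed with each guide (17.5% of all genes). In the direct test of guide 5 minus guide 3, 0 of 192 members passed with limma and 0 with limma voom, 20 had an unadjusted p under 0.05, and 47 of all genes passed (0.412%). Library weights called 8 members higher and 22 lower in that test. The share of all genes under those weights is not given here, so these counts are not read as a result about members.

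Members that rose and members that fell differed in GC content. The exons of the 25 members that rose had a median GC content of 54.7%, those of the 29 that fell 44.0%, those of the 138 others 48.9%, and those of all genes 49.0%. With the libraries corrected for both GC content and exon length, 25 members rose and 24 fell (18.5% and 15.6% of all genes), and 17 in each direction had also passed before it. The LINC genes then had 13 rises and 4 falls, the antisense genes 8 and 15, and the snoRNA hosts 0 and 4. Control replicate 2 was the highest control in 133 members (69.3%, beside 63.9% of all genes), 23 of the 29 that fell among them and 12 of the 25 that rose.

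**Figure D5:**
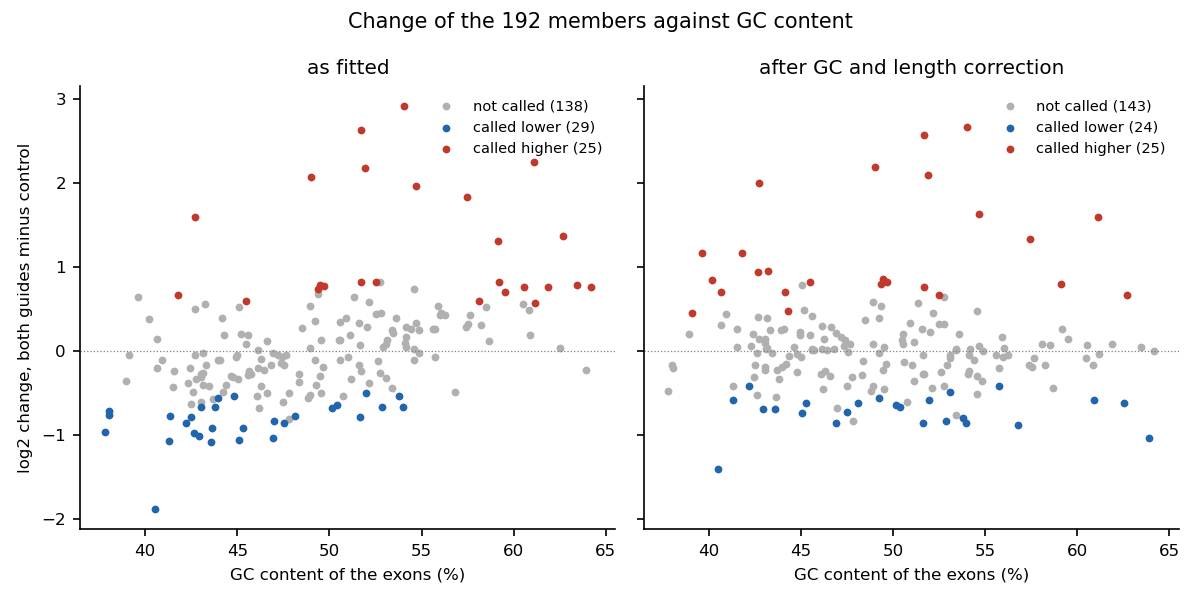
Log2 change of the 192 members (both guides minus control) against the GC content of their exons, as fitted on the left and corrected on the right; red and blue points passed upward and downward. On the left the points climb with GC content, and on the right calls in both directions occur across the range.

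The AU-rich motif that the ZFP36 family binds, spelled TATTTAT in DNA letters and searched on the transcribed strand alone, was counted in the longest GENCODE 29 transcript of each gene. It was present in 5 of the 25 members that rose (20.0%), in 11 of the 29 that fell (37.9%), in 36.2% of the others and in 40.1% of all genes. Per kilobase these are 0.145, 0.289, 0.190 and 0.182 motifs. Overlapping matches count separately, as in LINC00152, which fell and whose 4 motifs form a single run. Members that rose and fell also differed in GC content (54.7% and 44.0%), and its part in these rates was not tested. Transcripts of members were shorter, with a median of 2490 bases against 3586 for all genes. Sites are shown for 2 members that rose, NEAT1 and MMP24-AS1, and for 3 that fell, with the motif in capitals and 10 bases of GRCh38 on each side:
NEAT1: tttacaatttTATTTATttcttgctac
MMP24-AS1: agttttctatTATTTATttcttgttta
OIP5-AS1: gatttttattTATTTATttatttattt
MEF2C-AS1: cacagactaaTATTTATacaacttttt
LINC01021: atagaaaataTATTTATcgcaacctga
These lie at chr11:65430850-65430876, chr20:35202226-35202252 (minus strand), chr15:41299113-41299139, chr5:88943303-88943329 and chr5:27485220-27485246, on the plus strand where not stated. NEAT1 holds 5 such motifs in 22743 bases, MMP24-AS1 3 in 1542, OIP5-AS1 6 in 8829, of which 4 overlap in a single run, MEF2C-AS1 3 in 2350 and LINC01021 1 in 1610. The NEAT1 motifs start at bases 8063 to 15567 of its longest transcript, the form that ends without the usual poly(A) tail. The libraries were poly(A)-selected, and which NEAT1 form gave the reads was not tested. A motif is a match of letters, and binding was not measured.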

How the data were processed

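RNA of 7 libraries of a human cell line was sequenced single-end after poly(A) selection with a directional kit, per the labels' protocols. The submitters' processing notes name the aligner STAR 2.5.3, the counter HTSeq, limma and edgeR, and the builds hg38 and GRCh38.p7, with no parameters; whether counting used strand is not given in the sources used here. The authors' deposited tables hold FPKM for each library, group means of CPM as a normalized signal, and, for each guide over control, log2 fold changes with false discovery rates (adjusted p-values), per the file headers. Of 11581 rows, 173 without FPKM, symbol or type were left out. Dividing the deposited CPM by FPKM gave each gene's length, which equals the whole gene span in GENCODE 29 for 8064 genes, so FPKM is low for long genes. FPKM times this length gave CPM and, for 100% of values within 0.01, whole reads. No 2 libraries held the same values. All 11408 genes passed the filter of a mean CPM of at least 0.5 and all 192 members were tested. Members with a control mean below 0.5, such as MIR210HG, LINC00656, LINC00482 and ZMIZ1-AS1, passed only through their guide libraries. Values of log2(CPM + 0.5), on which changes of low genes are understated, were fitted in limma 3.58.1 (R 4.3.3), giving each guide and the control a mean of its own (4 residual and 8.78 prior degrees of freedom). Tests were two-sided, with Benjamini-Hochberg adjustment over all 11408 genes and a threshold of 0.05. The procedure was run on simulated counts, drawn independently at a single spread with few genes changed. They held no GC effect and no outlying library, so the simulation cannot show how the procedure handles these. Alternatives were the FPKM scale, pseudocounts of 0.1 and 1, a mean CPM of at least 2 or no filter, 3 scalings, a loess correction of each library for exon GC content and length (span 0.3), a replicate block, other variance models, and leaving out single libraries. The crossed pairing block and the GC correction without control replicate 2 were chosen after seeing the data. edgeR and DESeq2 were not run; limma voom was run on the recovered reads.

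Named are NEAT1, MALAT1, GAS5 and all SNHG and microRNA hosts; among LINC and among antisense genes, the 8 highest and 8 lowest calls that moved the same way with both guides without overlap, and the 4 with the highest mean CPM; their sense partners; up to 3 called genes of each list; and ZFP36L2. Some of these are given by counts only. The members and lists were chosen with earlier results of these data known. Columns name guides 3 and 5 of ZFP2, and labels name ZFP36L2 and number the guides otherwise, so the column numbers are kept. Depth limits cover counting error only. Sequences come from RefSeq tables on GRCh38.p14, where 152 members had a promoter entry, and from GENCODE 29 transcripts. Python 3.11.15 with pandas 2.3.3, numpy 2.4.6, scipy 1.17.1 and matplotlib 3.10.9 were used.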

Additional observations from a re-analysis of the deposited data

Results flagged for a closer look

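In 69 members, named or called, the 4 guide libraries were checked for a library far from the other 3, which chance gives in about 1 in 20 groups, and 2 members met the rule. MIR210HG stood at 1.47 CPM in guide 5 replicate 2, below 2.01, 2.06 and 2.04 CPM in the other guide libraries and against 0 CPM in each control. PRKCQ-AS1 stood at 3.35 CPM in guide 3 replicate 2, below 5.37, 5.62 and 5.31 CPM in the other guide libraries and further from the controls at 13.6, 9.54 and 9.58 CPM.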

How the results depend on the processing

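Among 106 named genes, 2086 of the alternative values kept their direction and side of the threshold, 326 lost the call, 46 gained one, 31 changed sign without a call in either fit, and 10 changed sign with a call in at least 1 of them. The last were, without control replicate 2 and with GC correction, CEBPZ-AS1 (0.57), LINC00657 (0.27), SNHG1 (0.21), SNHG14 (0.32), MCM3AP (-0.21) and SNAI3 (-0.40); SNHG7 also there (-0.04) and with GC correction alone (-0.03); and with the replicate block and GC correction MAFG-AS1 (-0.03) and VPS9D1-AS1 (-0.07). The cause was not tested. Where a guide keeps 1 library, that library is assumed to vary like the other groups. Of members called with both guides (25 higher, 29 lower), the FPKM scale, on which 74 members were tested, called 14 higher and 12 lower; quantile normalization called 15 and 57. Library weights called 47 higher. Leaving out each library gave 14 to 43 higher and 13 to 38 lower. With guide 3 (25 and 18) there were 7 lower on the FPKM scale, 45 lower with quantile normalization, 51 higher with library weights, and 13 to 43 higher and 2 to 27 lower without each library. With guide 5 (10 and 16) there were 5 and 8 on the FPKM scale, 45 lower with quantile normalization, 16 higher with median of ratios, 30 and 26 with library weights, and 5 to 23 higher and 1 to 28 lower without each library. For guide 5 minus guide 3 (0 and 0) library weights called 8 and 22, and leaving out each library 0 to 3 in each direction. Without control replicate 2 and with GC correction, 48 members were called higher with both guides, 49 with guide 3 and 35 with guide 5, and 6 higher and 18 lower between guides. Counts for a single guide or between guides, and those of sense partners and list genes below, have no share of all genes beside them in places. There they show dependence on processing, not a result about members, partners or lists. Sense partners (19 and 23) had 11 higher on the FPKM scale, 33 higher without control replicate 2 and with GC correction, and 14 to 29 higher and 13 to 28 lower without each library. Genes of the lists (0 and 38) had 23 lower with GC correction, and 0 to 6 higher and 19 to 46 lower without each library. Of these, 1 was called higher with a pseudocount of 0.1, a mean CPM of at least 2, the same sum of reads, voom, or the block with GC correction; 2 with quantile normalization, GC correction or the replicate block; 4 with median of ratios, 7 with library weights, and 10 without control replicate 2 and with GC correction.

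The replicate numbers were not taken as pairs, since same-numbered libraries had correlations of deviations from -0.49 to 0.37. With the number as a replicate block, in which control replicate 3 has a term of its own and adds nothing, 26 members were called higher and 37 lower with both guides, and 28 lower with guide 5. With the replicate block and GC correction, 12 members were called higher and 10 lower with both guides, 13 and 7 with guide 3, and 6 lower with guide 5, 9 and 12 sense partners, and 17 list genes lower. The crossed pairing block called 23 and 21 members with both guides and 5 lower with guide 5. Removing the filter changed nothing, because every gene passed it. Reads limit the low members most: at a mean of 1.08 CPM, the lowest, 3 reads in a control library are up to 0.162 CPM.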
